A study of Mus musculus with 19 samples.

Results

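The Wnt and Notch pathway genes are 38 of the 12629 genes measured. They were chosen by symbol: Wnt ligands, Frizzled and other Wnt receptors, secreted antagonists and agonists, Dishevelled, Axin, Apc, Gsk3b and TCF factors on the Wnt side, and Notch receptors, Jagged ligands, Rbpj, modifiers and the Hes and Hey repressors on the Notch side. Of the 38 genes, 25 were assigned to Wnt and 13 to Notch signaling, and a further 45 genes that the same symbols cover, among them Axin2, Lef1, Notch2 and Dll1, were not analysed here. The study asked which mRNAs change when sensory neurons regenerate axons in the spinal cord after expression of an activated integrin. For this, the left C5 to C8 dorsal root ganglia (DRGs) received AAV5-fGFP alone (GFP), or AAV5-α9-V5 together with AAV5-kindlin1-GFP (α9k1), which encode the tenascin receptor subunit α9 integrin and its activator kindlin-1. The dorsal roots were crushed at injection (crush) or left intact (naive), and 8 weeks later GFP-positive neurons were sorted by FACS for RNA-seq.

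There were 5 libraries of GFP-naive, 4 of GFP-crush, 6 of α9k1-naive and 4 of α9k1-crush, all taken at 8 weeks and all AAV5-injected. The GFP groups are labelled wild-type and the α9k1 groups as a9k1 overexpression. Per the sample labels, the animals were C57BL/6 mice, ganglia were digested with papain and RNA was taken with an RNeasy Micro kit, whereas the methods of the study give adult male Lewis rats, trypsin with collagenase and another kit, and reads were aligned to the mouse genome in either case. Per the deposited metrics, 47.5 to 54.1% of the reads of a library aligned, and 3.87 to 4.05% of the aligned bases differed from the mouse reference. The transgenes were driven by broadly active promoters (CMV for fGFP and kindlin-1, CAG for α9), so expression was not limited to neurons by the promoter. The study calls the libraries of a condition biological replicates, but as the labels do not say which came from separate animals, the p-values measure the spread between these libraries.

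Wnt proteins are secreted lipid-modified ligands that bind Frizzled, LRP and Ryk receptors. In the canonical branch they act through Dishevelled to inhibit the Axin, Apc and Gsk3b complex, so that beta-catenin accumulates and TCF factors activate transcription, while Frizzled3 and Ryk also guide axons in the spinal cord. Notch receptors are cleaved after they bind Jagged or Delta ligands on a neighbouring cell, and the released domain joins Rbpj to switch on Hes and Hey repressors. In adult ganglia and nerve, glia, vascular cells and neurons all use Notch signaling, and Wnt and Notch ligands have been studied as inhibitors of axon growth.

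All levels below are the deposited log2 values, normalized by the authors for gene length and depth, and each log2 fold change (log2FC) is a difference at equal sequencing covariates from limma with its standard error (SE). A gene was called lower or higher where its p, adjusted by Benjamini-Hochberg across the whole table, was under 0.1. On this length-adjusted scale 13 of the 38 genes had a mean over all libraries above the median gene (4.37). Sfrp5, a secreted antagonist that binds Wnt ligands, was the most abundant with a mean of 9.52 and stood at the 98.9 percentile of all genes, followed by Wls (7.48), which carries Wnt proteins to the cell surface, and Gsk3b (6.04). Wnt7a was the least abundant, with a mean of 1.90.

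The libraries held between 36.4 and 87.6 M read pairs, and the counting error behind a normalized value is unknown. In 19 of 19 libraries the summed level of 12 satellite glia and Schwann cell markers was above that of 13 neuronal markers, although neurons were sorted. The glial sums (log2) lay between 15.82 and 16.19 in GFP-naive, 16.34 and 16.84 in α9k1-naive, 15.16 and 15.49 in GFP-crush, and 14.54 and 15.20 in α9k1-crush libraries. Apoe, at 14.02 to 16.74 in single libraries, made up most of these sums, and none of the 12 glial markers was at 0. The unweighted mean over each list gave another order, with medians of 9.44 for the glial and 8.94 for the neuronal list in GFP-naive and 8.91 and 8.40 in α9k1-naive libraries, but 9.14 for both in GFP-crush and, with neurons above glia, 8.59 and 9.36 in α9k1-crush libraries. In bulk samples, fewer cells of a type and less RNA per cell cannot be told apart.

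**Figure D1:**
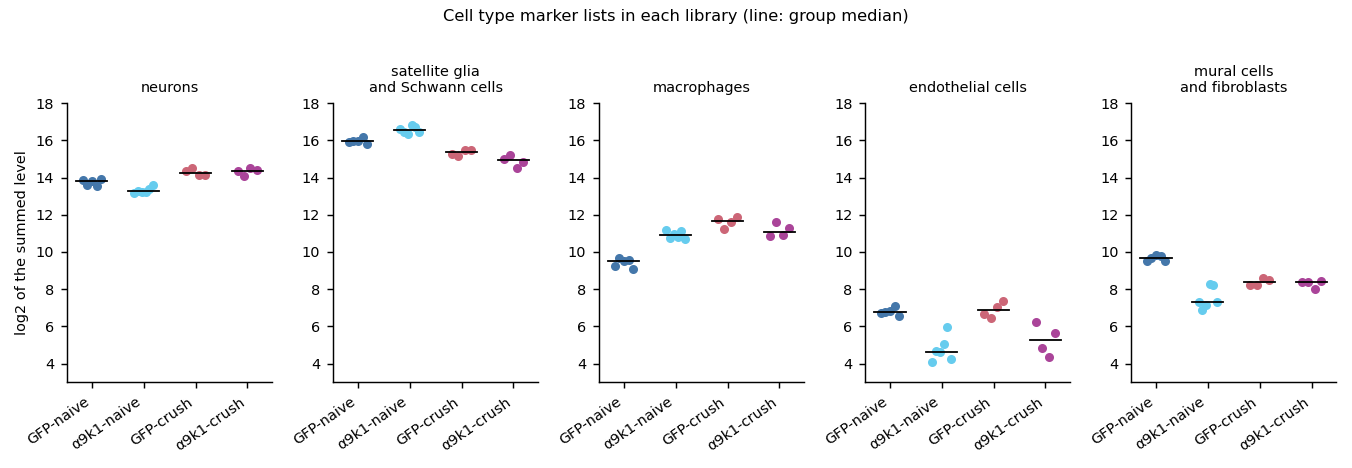
Summed level of 5 lists of cell type markers (log2 of the sum of linear values, y axis) in each of the 19 libraries by group (x axis), where a point is a library and a line the group median. The glial sum had medians of 15.96 in GFP-naive and 15.37 in GFP-crush, and of 16.54 in α9k1-naive and 14.92 in α9k1-crush, and the macrophage sum was lowest in GFP-naive, with a median of 9.51.

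After crush with GFP, genes on both the Wnt and the Notch side were lower, from ligands to transcription factors. In GFP-crush compared with GFP-naive, 17 of the 38 genes were called lower (44.7%) and 0 higher, whereas 15.7% of all genes were called lower and 7.39% higher. The median log2FC was -0.49 over the 38 genes and -0.08 over all genes, and 4 of the 38 had a log2FC above 0 against 41.0% of all genes. On the Notch side 6 of 13 genes were lower and on the Wnt side 11 of 25. For 13 of the 38 genes the GFP-crush libraries all lay below the GFP-naive libraries (12.2% of all genes), and for 1, Sfrp4, they all lay above (7.59%). All 17 genes kept a negative log2FC when libraries were centred on their medians or quantile normalized, which gave 14 and 16 lower calls, and 10 were called with only the GFP libraries in the fit. Median-centring moved the median of all genes from -0.08 to 0.06.

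After crush with α9k1, 5 genes were called lower: Wnt6, Wnt11, Sfrp5, Hey2 and Heyl. In α9k1-crush compared with α9k1-naive these were 13.2% of the 38 genes, against 5.27% of all genes lower and 4.47% higher, and 0 of the 38 were called higher. By level alone the separation was wider, with 15 of the 38 genes lower in all α9k1-crush than in any α9k1-naive library (16.1% of all genes) and 4 higher (Dkk3, Sfrp4, Jag2 and Wnt7a; 17.4%). Without covariates 20 genes were called lower and 5 higher (Jag2, Apc, Wnt7a, Dkk3 and Sfrp4), against 27.1% and 28.5% of all genes. The covariates themselves differed between groups, with 34.5%, 52.2% and 74.5% of their variance lying between groups, and the median SE of the 38 genes in this comparison was 0.35 with them and 0.18 without. The sequencing metrics and the groups are therefore partly confounded. With only the α9k1 libraries in the fit, none of these 5 genes was called, though their log2FC stayed negative. When 1 library at a time was left out, the lower count ranged from 3 to 8.

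In uninjured ganglia 6 genes were lower with α9k1: Hes5, Hey2, Apc and all 3 Dishevelled genes. These 6 are 15.8% of the 38 genes in α9k1-naive compared with GFP-naive, near the share of all genes called lower (17.6%), and 0 were called higher (11.4% of all genes). The lower count ranged from 1 to 7 when 1 library at a time was left out. With only the 2 naive groups in the fit 3 were called lower, and without covariates 11 were lower and 4 higher (29.5% and 16.5% of all genes). For Hes5, Hey2 and Wnt6 no α9k1-naive library reached the lowest GFP-naive library (13.2% of all genes), and for 0 genes did every α9k1-naive library lie above GFP-naive (8.43%).

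In α9k1-crush compared with GFP-crush 0 of the 38 genes were called in either direction, in a comparison where limma called 0.728% of all genes higher and 0.182% lower. At an unadjusted p under 0.05 there were 5 of the 38 (9.11% of all genes). Their median SE was 0.42 with the covariates and 0.19 without, and without covariates 8 genes were called higher and 11 lower, against 29.6% and 28.3% of all genes. By level alone, 6 genes were higher in all α9k1-crush libraries (Gsk3b, Dkk3, Apc, Jag2, Rspo2 and Axin1; 20.0% of all genes) and 8 lower (Dvl2, Hes5, Hey2, Wnt11, Sfrp5, Wnt6, Ryk and Sfrp1; 20.8%). At equal covariates no difference between these groups was thus called for the 38 genes with all libraries, and without GFP-crush replicate 4 Axin1 was called higher (log2FC 1.31, adjusted p = 0.0854). The comparisons that share a group of libraries are not independent of each other.

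**Figure D2:**
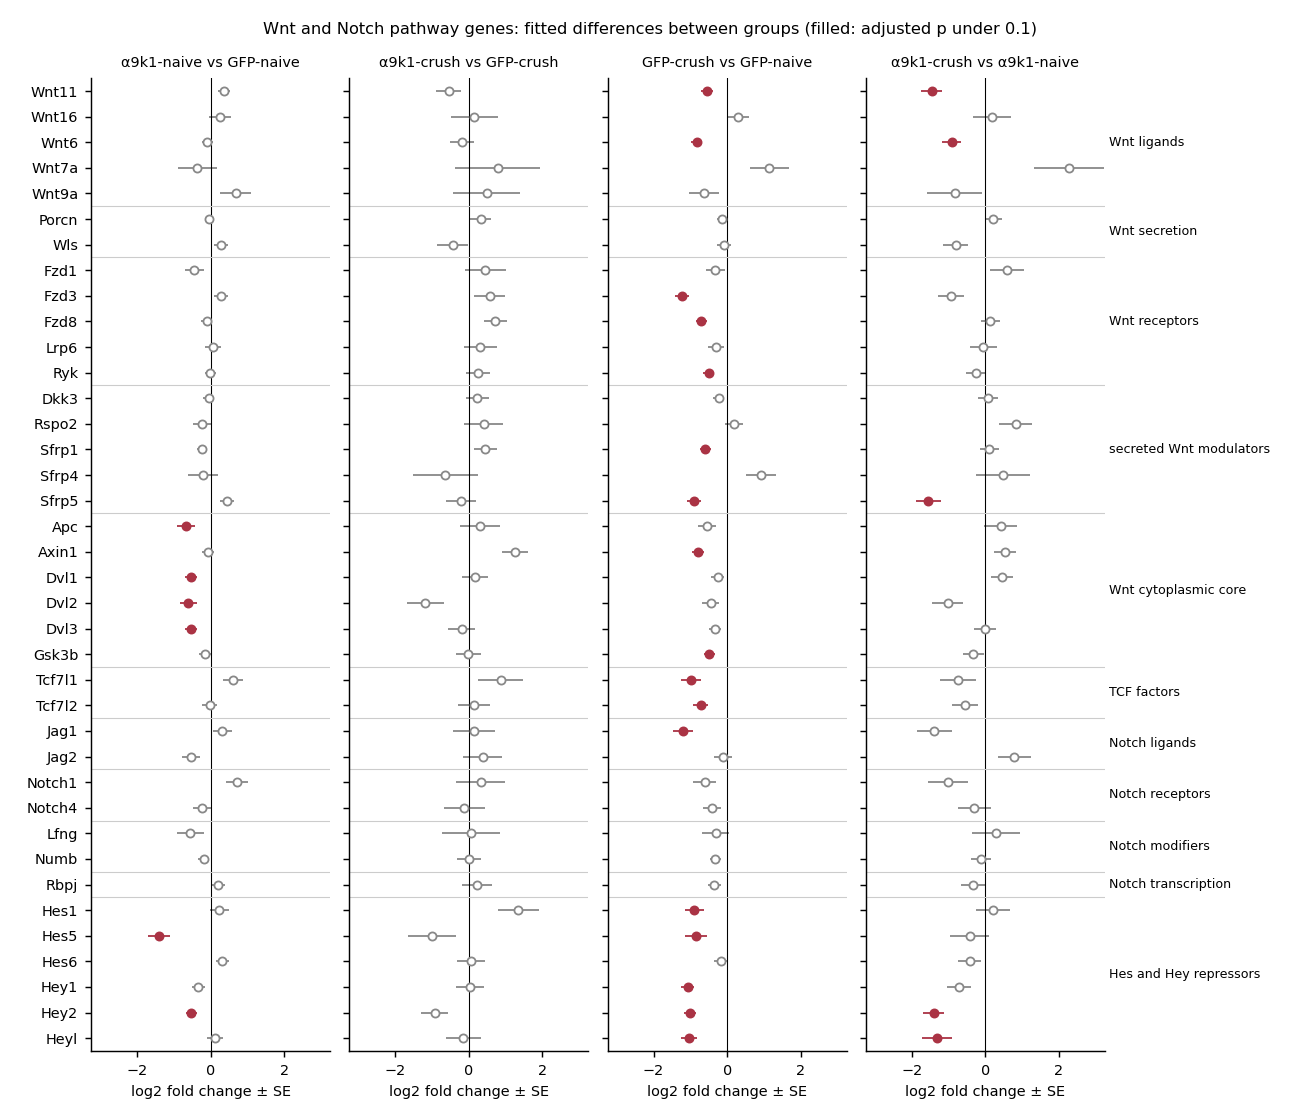
log2FC with its SE (x axis) of each of the 38 genes (y axis, ordered by role) in the 4 comparisons between groups, with filled red points for genes called at an adjusted p under 0.1. In GFP-crush versus GFP-naive 17 points are filled and lie left of 0, and in α9k1-crush versus GFP-crush none is filled and the bars are wider.

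Among the Notch ligands, Jag1, which activates Notch on neighbouring cells (chr2:137081456-137116644 in GRCm38), was lower after crush with GFP. Its level was 3.78, 3.79, 3.78, 3.94 and 4.06 in the GFP-naive libraries and 2.07, 2.58, 3.67 and 2.66 in the GFP-crush libraries. The groups did not overlap, although the highest GFP-crush library was 0.11 below the lowest GFP-naive one. The log2FC was -1.20 (SE 0.26, adjusted p = 0.00884). In α9k1-naive libraries Jag1 ranged from 3.63 to 4.03 with a median of 3.90, and in α9k1-crush libraries it was at 2.70, 3.17, 2.59 and 2.30, again with no overlap. Its log2FC there was -1.39 (SE 0.47) with an adjusted p of 0.103, just past the threshold, and 5 of the 19 fits that leave out 1 library called it. Of the 8 other settings, 6 called it lower too, among them those without covariates (log2FC -1.19, adjusted p = 0.000224), with low values removed and with median-centring. Jag2, the other Jagged ligand measured, had a different pattern. It stood at 5.45, 4.86, 5.65 and 5.02 in the α9k1-crush libraries, above every library of the other 3 groups, which lay between 3.27 and 4.64. At equal covariates its log2FC was 0.79 (SE 0.44, adjusted p = 0.311) against α9k1-naive and 0.38 (SE 0.53, adjusted p = 0.888) against GFP-crush, so neither was called. Without covariates both were called higher (log2FC 1.58, adjusted p = 4.93e-06, and 1.25, adjusted p = 0.000174).

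The receptors Notch1 and Notch4 were called in no comparison. With GFP, Notch1 averaged 3.41 ± 0.31 (SD, n = 5) without and 2.91 ± 0.53 (n = 4) with crush, and with α9k1 it averaged 3.99 ± 0.32 (n = 6) without and 2.74 ± 0.35 (n = 4) with crush. Its log2FC was -0.61 (SE 0.31, adjusted p = 0.188) in GFP-crush versus GFP-naive and 0.73 (SE 0.30, adjusted p = 0.102) between the naive groups. After crush with α9k1 the levels did not overlap, but the log2FC of -1.02 had an SE of 0.55 (adjusted p = 0.297). Notch4, a receptor known mainly from endothelium, had log2FC values of -0.41 (adjusted p = 0.288) and -0.30 (adjusted p = 0.767) in the GFP and α9k1 crush comparisons. Without covariates Notch1 was called lower in the α9k1 crush comparison (log2FC -1.25, adjusted p = 0.000204) and higher between the naive groups (0.57, adjusted p = 0.0412), and Notch4 was called lower in both crush comparisons. Rbpj, the DNA-binding partner of cleaved Notch, had group means between 2.91 and 3.18, and Numb, which inhibits Notch, between 4.96 and 5.27. Lfng, a glycosyltransferase that modifies Notch, ranged from 1.33 to 3.45 over the libraries. None of these 3 genes was called at equal covariates. Without covariates Lfng was called lower with α9k1 in naive ganglia (-0.6, adjusted p = 0.0809) and after crush (-0.73, adjusted p = 0.0578).

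The Hes and Hey genes encode repressors that Notch induces, and 5 of the 6 measured were lower after crush with GFP (15.7% of all genes), each with no overlap (12.2% of all genes). Only Hes6, which antagonises Hes1 and is not a usual Notch target, was not called (log2FC -0.17, SE 0.18, adjusted p = 0.542). The median log2FC of the 6 genes was -0.94. The direction of the 5 held when libraries were median-centred or quantile normalized, and Hes5 was no longer called after median-centring. Without covariates Hes6 was called lower in α9k1-crush against α9k1-naive (-1.02, adjusted p = 2.7e-05) and against GFP-crush (-0.39, adjusted p = 0.0594). It was then called higher in α9k1-naive against GFP-naive (0.36, adjusted p = 0.0539).

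Hey2 (chr10:30832359-30842801) was called lower in 3 of the 4 comparisons at equal covariates, more than any other of the 38 genes. Without covariates it was called lower in all 4, as were Hes5, Wnt6 and Sfrp1. Hey2 was at 5.56, 5.53, 5.56, 5.69 and 5.70 in GFP-naive and at 4.64, 4.26, 4.86 and 4.82 in GFP-crush libraries. In α9k1-naive libraries it lay between 4.78 and 4.97 with a median of 4.92, and in α9k1-crush libraries at 3.28, 3.70, 2.81 and 3.11. Every α9k1-crush library was thus below every other library, and every GFP-naive library above every other. The log2FC was -1.0 (SE 0.16, adjusted p = 0.00157) in the GFP crush comparison, -1.41 (SE 0.29, adjusted p = 0.013) in the α9k1 crush comparison and -0.52 (SE 0.16, adjusted p = 0.0338) between the naive groups. This last value was -0.20 (SE 0.21, adjusted p = 0.552) without α9k1-naive replicate 6 and -0.45 (adjusted p = 0.133) without GFP-naive replicate 4, so the naive call was lost in these fits. The covariates were computed anew in each of them. Without covariates and with all libraries the naive log2FC was -0.71 (adjusted p = 0.000393, called lower), and the naive groups did not overlap. The 2 crush groups did not overlap either, but the log2FC of -0.93 (SE 0.36) was not called (adjusted p = 0.434), while without covariates it was -1.42 (adjusted p = 2.37e-06). The interaction (the difference between α9k1 and GFP with crush, less the same difference in naive ganglia) was -0.41 (SE 0.34, adjusted p = 0.642), and -0.71 (adjusted p = 0.0137) without covariates.

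Hes5 (chr4:154960923-154962371), a classical Notch target of neural progenitors and glia, had the largest difference of the 38 genes between α9k1 and GFP without injury. Its level was 4.70, 4.83, 4.73, 5.16 and 4.37 in GFP-naive libraries. In α9k1-naive libraries it ranged from 2.45 to 3.50 with a median of 3.13. No α9k1-naive library came near the GFP-naive range, and the log2FC was -1.40 (SE 0.30, adjusted p = 0.00398). With GFP, Hes5 was at 4.29, 3.31, 4.28 and 4.29 after crush, for a log2FC of -0.84 (SE 0.30, adjusted p = 0.0754). The call was lost without GFP-crush replicate 2 (log2FC -0.68, adjusted p = 0.221). It was also lost without GFP-naive replicate 2 or 4, without GFP-crush replicate 1 or 4, or with α9k1-naive replicate 4 or α9k1-crush replicate 3 left out, at log2FC values of -0.89 to -0.68 over all 7 such fits. In α9k1-crush libraries Hes5 was at 2.08, 2.16, 1.06 and 1.02, the lowest group of the 4 with no overlap. At equal covariates the log2FC of α9k1-crush was -0.43 (SE 0.54, adjusted p = 0.707) against α9k1-naive and -1.0 (SE 0.66, adjusted p = 0.694) against GFP-crush, compared with -1.46 and -2.46 without covariates, both called lower. In the mouse annotation 31.8% of the exon bases of Hes5 are shared with a transcript on the opposite strand, Gm20421, and reads of the SMART-Seq kit do not mark strand, so reads of the 2 cannot be told apart.

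Hey1, Heyl and Hes1 were also lower after crush with GFP. Hey1 was at 5.37, 5.28, 5.17, 5.39 and 5.01 in GFP-naive and at 4.03, 4.36, 4.57 and 4.47 in GFP-crush libraries, and its log2FC was -1.07 (SE 0.18, adjusted p = 0.00187). In α9k1-naive libraries it lay between 4.51 and 5.10, above all α9k1-crush libraries (3.73 to 4.46), with a log2FC of -0.72 (SE 0.32, adjusted p = 0.214) that was called without covariates (-0.69, adjusted p = 0.000736). Heyl was at 4.68, 4.60, 4.66, 4.87 and 4.57 in GFP-naive and at 3.46, 3.41, 4.20 and 3.54 in GFP-crush libraries. Its groups were apart despite the higher level in GFP-crush replicate 3, and the log2FC was -1.04 (SE 0.22, adjusted p = 0.00794). With α9k1, Heyl ranged from 4.21 to 4.91 in naive libraries with a median of 4.62 and stood at 3.15, 3.47, 2.71 and 2.56 after crush. That log2FC of -1.32 (SE 0.40, adjusted p = 0.0664) was called, though the call held in 11 of the 19 fits that each leave out 1 library. It was lost without GFP-naive replicate 1 or 3, α9k1-naive replicate 1, 2 or 4, GFP-crush replicate 1 or 4, or α9k1-crush replicate 4, at -1.45 to -1.11. Hes1 went from 5.10, 5.05, 5.11, 5.38 and 5.08 to 4.57, 4.05, 4.78 and 4.26 (log2FC -0.89, SE 0.26, adjusted p = 0.034). In the α9k1 groups Hes1 overlapped, with means of 5.15 in naive and 4.40 in crush libraries. Its log2FC there was 0.21 (SE 0.46, adjusted p = 0.85) at equal covariates and -0.75 (adjusted p = 0.0113, called lower) without them, so the covariates turned the direction.

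**Figure D3:**
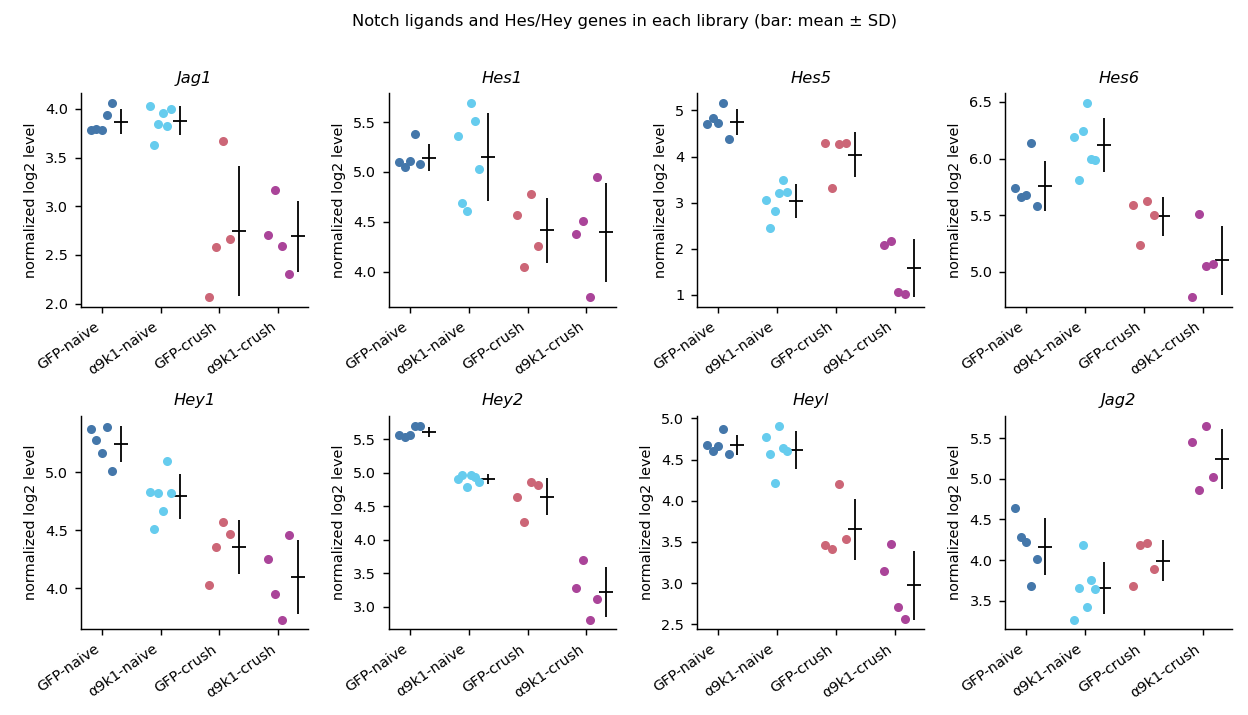
Normalized log2 level (y axis) of the 2 Jagged ligands and the 6 Hes and Hey genes in each library (points) of the 4 groups (x axis), with the mean and SD beside each group; the y axes do not start at 0. Hey2 is lowest in α9k1-crush (2.81 to 3.70) and highest in GFP-naive (5.53 to 5.70), and Jag2 is highest in α9k1-crush (4.86 to 5.65).

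The promoters of Hes5 and Hey2 are shown because these 2 Hes and Hey genes were called both in α9k1-naive versus GFP-naive and in GFP-crush versus GFP-naive, and because Rbpj is known to bind the letters TGGGAA. The sequences are from RefSeq (GRCm38.p6) and run from 250 bases before the start of transcription to its first 10 bases, 5′ to 3′ on the strand of the gene. Capitals mark TGGGAA or its reverse complement TTCCCA.
Hes5, chr4:154960673-154960932, plus strand: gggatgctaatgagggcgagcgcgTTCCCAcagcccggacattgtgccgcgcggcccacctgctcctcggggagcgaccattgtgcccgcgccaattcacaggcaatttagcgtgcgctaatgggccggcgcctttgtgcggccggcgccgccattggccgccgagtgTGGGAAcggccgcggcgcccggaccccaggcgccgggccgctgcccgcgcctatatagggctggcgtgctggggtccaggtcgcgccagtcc
Hey2, chr10:30842774-30843033, minus strand: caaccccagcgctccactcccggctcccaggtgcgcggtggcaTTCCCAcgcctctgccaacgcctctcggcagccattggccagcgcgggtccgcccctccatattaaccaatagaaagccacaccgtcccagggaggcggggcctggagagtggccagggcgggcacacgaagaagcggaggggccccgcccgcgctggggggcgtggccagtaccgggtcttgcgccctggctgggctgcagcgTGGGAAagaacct
In Hes5 the matches began 226 bases before the start on the reverse strand and 82 bases before it on the forward strand, and in Hey2 they began 207 bases before it on the reverse strand and 3 bases before it on the forward strand. Over windows of 250 bases before to 50 after the start, searched on both strands, TGGGAA stood in 9 of the 31 promoters found for 25 of the 38 genes (29%), in 25.6% of all 32851 promoters and in 22.7% of the 10906 promoters of genes measured here. At least 2 matches were in 4 of the 31, those of Hes5, Hey2, Lfng and Rbpj (12.9%), and in 3.79% of all promoters. No promoter was found for Hes1, Hey1 or Heyl, so these were not searched, and 2 overlapping promoters of Rbpj are among the 9. The letters CTTTGA, which TCF factors bind and which do not overlap the first motif, stood in 4 of the 31 (12.9%), in 16% of all promoters and in 11.7% of those of genes measured here, with matches in Wnt11, Fzd1, Gsk3b and Jag1. These matches describe the mouse sequence and were not tested for binding.

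On the Wnt side, the ligands Wnt6 and Wnt11 were lower after crush with either virus. Wnt6 (chr1:74771892-74785322) was at 6.13, 6.01, 6.22, 6.32 and 6.12 in GFP-naive and at 5.25, 5.14, 5.94 and 5.56 in GFP-crush libraries. The groups did not overlap, by 0.07 at the nearest libraries, and the log2FC was -0.83 (SE 0.15, adjusted p = 0.00246). In α9k1-naive libraries Wnt6 ranged from 5.54 to 5.93 with a median of 5.82, and in α9k1-crush libraries it stood at 4.45, 4.72, 4.17 and 4.61. Those groups were about 0.82 apart at the nearest libraries, and the log2FC was -0.92 (SE 0.26, adjusted p = 0.0525). This call was lost without GFP-naive replicate 1 or 3, or α9k1-naive replicate 1, 3 or 4, at a log2FC of -1.0 to -0.84.

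Wnt11, a ligand of the non-canonical branch (chr7:98835112-98855195), was at 3.93, 3.76, 4.12, 3.85 and 3.83 in GFP-naive and at 3.41, 3.01, 3.39 and 3.45 in GFP-crush libraries. All 4 crush libraries were lower, with a log2FC of -0.54 (SE 0.16, adjusted p = 0.0341) that was no longer called without GFP-naive replicate 2 or GFP-crush replicate 2 (adjusted p = 0.101 and 0.112, respectively). With α9k1 the difference was larger in size. Wnt11 ranged from 3.94 to 4.54 in α9k1-naive libraries with a median of 4.18 and was at 2.43, 2.55, 1.92 and 2.26 in α9k1-crush libraries, for a log2FC of -1.46 (SE 0.28, adjusted p = 0.00913). The interaction was -0.92 (SE 0.32) with an adjusted p of 0.208 at equal covariates and -1.32 (adjusted p = 0.000127) without them, so whether the 2 crush effects were called as different turned on the covariates. The other 3 ligands were not called. With α9k1, Wnt7a averaged 0.75 ± 0.57 (SD, n = 6) in naive and 3.69 ± 0.89 (n = 4) in crush libraries, with no overlap, but its log2FC of 2.28 had an SE of 0.95 (adjusted p = 0.181). Without covariates Wnt7a was called higher in this comparison (2.93, adjusted p = 1.22e-05), in α9k1-crush versus GFP-crush (1.19, adjusted p = 0.0323) and in the GFP crush comparison (1.13, adjusted p = 0.0593). Wnt16 and Wnt9a had group means between 2.45 and 3.36. Porcn, which adds the lipid to Wnt proteins, had group means between 4.59 and 4.76 and was not called either, nor was Wls (7.04 to 7.85). Without covariates Wls was called higher with α9k1 in naive ganglia (0.54, adjusted p = 0.0121) and after crush (0.51, adjusted p = 0.0283). At equal covariates the latter log2FC was -0.44 (SE 0.42, adjusted p = 0.817).

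Of the 5 Wnt receptors measured, Fzd3, Fzd8 and Ryk were lower after crush with GFP. Fzd3 (chr14:65201026-65262463), a Frizzled required for axon guidance, had the largest change of the 38 genes in this comparison at equal covariates, though without them its log2FC of -0.95 was smaller in size than those of Jag1, Wnt7a, Heyl and Hey2. It was at 2.43, 3.20, 2.52, 2.80 and 2.80 in GFP-naive and at 1.60, 1.54, 2.28 and 1.79 in GFP-crush libraries. The groups did not overlap, and the log2FC was -1.22 (SE 0.19, adjusted p = 0.00121). In the α9k1 groups Fzd3 ranged from 2.48 to 3.06 in naive and from 1.89 to 2.30 in crush libraries, but its log2FC of -0.94 (SE 0.35) was not called (adjusted p = 0.132), unlike that of -0.76 without covariates (adjusted p = 0.00118). Fzd3 is among the least abundant genes, at the 5.72 percentile of all genes by mean level. Ryk, a receptor through which Wnt proteins repel axons, was at 3.79, 4.31, 3.74, 4.10 and 3.71 in GFP-naive and at 3.66, 3.36, 3.72 and 3.40 in GFP-crush libraries. GFP-crush replicate 3 was within the naive range, and the log2FC was -0.50 (SE 0.15, adjusted p = 0.0409). Ryk was not called after median-centring or quantile normalization, nor without GFP-naive replicate 2 or GFP-crush replicate 2 or 4 (log2FC -0.46 to -0.34). With α9k1 all crush libraries lay below the naive ones, and the log2FC of Ryk was -0.26 (SE 0.27, adjusted p = 0.643) at equal covariates and -0.68 (adjusted p = 0.000338) without them. Fzd8 had a log2FC of -0.71 (SE 0.15, adjusted p = 0.00708) after crush with GFP and of 0.13 (SE 0.26, adjusted p = 0.835) with α9k1. The latter was -0.36 (adjusted p = 0.0237, called lower) without covariates, with means of 4.25 in naive and 3.89 in crush libraries. Fzd1 and Lrp6, the co-receptor of the canonical branch, were not called in any comparison at equal covariates. Without covariates Fzd1 was called lower with α9k1 in naive ganglia (-0.53, adjusted p = 0.0344) and Lrp6 after crush with GFP (-0.55, adjusted p = 0.0415).

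Among the secreted modulators, Sfrp5 and Sfrp1, which bind Wnt ligands, were lower after crush with GFP. Sfrp5 (chr19:42197971-42202252) was at 9.83, 9.93, 10.14, 10.19 and 9.83 in GFP-naive and at 8.78, 8.93, 9.37 and 9.27 in GFP-crush libraries. No libraries overlapped, and the log2FC was -0.91 (SE 0.19, adjusted p = 0.00635). With α9k1 it ranged from 10.04 to 10.62 in naive libraries with a median of 10.28 and stood at 8.15, 8.70, 7.90 and 8.04 in crush libraries. This was the largest decrease of the 38 genes in the α9k1 crush comparison, with a log2FC of -1.56 (SE 0.34, adjusted p = 0.0156), and the call held in 19 of 19 fits that leave out 1 library. The interaction for Sfrp5 was -0.65 (SE 0.38, adjusted p = 0.479) at equal covariates and -1.19 (adjusted p = 0.00109, called) without them. Sfrp1 had a log2FC of -0.59 (SE 0.14, adjusted p = 0.0155) with overlapping groups in the GFP crush comparison and of 0.11 (SE 0.26, adjusted p = 0.864) in the α9k1 one. There the direction turned with the covariates, since all α9k1-crush libraries lay below the α9k1-naive ones (means of 3.32 and 4.23) and the log2FC without covariates was -0.91 (adjusted p = 0.000349, called lower). Sfrp4, Dkk3, a Dickkopf family member, and Rspo2, which strengthens Wnt signals through Lgr receptors, were not called. Dkk3 was at 5.78, 5.80, 5.94 and 6.07 in α9k1-crush libraries, above the 5.02 to 5.77 of all others, with a log2FC of 0.06 (SE 0.27, adjusted p = 0.937) against α9k1-naive at equal covariates. Without covariates it was called higher against α9k1-naive (0.54, adjusted p = 0.00182) and against GFP-crush (0.80, adjusted p = 0.000143).

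In the cytoplasm, Axin1, the scaffold of the complex that degrades beta-catenin, was the one gene called for an α9k1 effect that differed with crush at equal covariates. It was at 4.22, 4.19, 4.49, 4.38 and 3.88 in GFP-naive and at 3.32, 3.29, 3.16 and 3.85 in GFP-crush libraries. The groups were apart by 0.03 at the nearest libraries, and the log2FC was -0.79 (SE 0.17, adjusted p = 0.0074). In the α9k1 groups it ranged from 4.04 to 4.40 without crush and stood at 4.01, 4.39, 4.21 and 4.38 with crush, a log2FC of 0.54 (SE 0.30, adjusted p = 0.317). The interaction was 1.33 (SE 0.34, adjusted p = 0.0832), where limma called positive interactions for 1.35% of all genes and negative ones for 0.847%, and 4 of the 38 genes had an unadjusted p under 0.05 (14.0% of all genes). The Axin1 call held in 9 of the 19 fits that leave out 1 library and was lost without GFP-naive replicate 2, 3 or 4, α9k1-naive replicate 1, 3, 4 or 6, GFP-crush replicate 2 or 3, or α9k1-crush replicate 4, at 1.17 to 1.37. It was also lost after median-centring and quantile normalization. Gsk3b, the kinase of the same complex, had a log2FC of -0.48 (SE 0.16, adjusted p = 0.0587) in the GFP crush comparison, with overlapping groups, and this call was lost after median-centring and in 5 of the 19 fits that leave out 1 library, without GFP-naive replicate 2 or 3, GFP-crush replicate 1, α9k1-naive replicate 6 or α9k1-crush replicate 3 (log2FC -0.49 to -0.30). In α9k1-crush libraries Gsk3b was at 6.40, 6.52, 6.71 and 6.47 and in GFP-crush libraries at 5.32, 5.85, 4.82 and 5.40. These 2 groups did not overlap, and yet the log2FC at equal covariates was -0.01 (SE 0.35, adjusted p = 0.996), against 1.18 without covariates (adjusted p = 0.000107, called higher).

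All 3 Dishevelled genes, which relay the signal from Frizzled, and Apc, a further part of the degradation complex, were lower with α9k1 in naive ganglia, each with overlapping groups. In this comparison 15.8% of the 38 genes were called lower, near the 17.6% of all genes. The log2FC was -0.53 for Dvl1 (SE 0.17, adjusted p = 0.0341), -0.60 for Dvl2 (SE 0.23, adjusted p = 0.0809), -0.53 for Dvl3 (SE 0.17, adjusted p = 0.0329) and -0.67 for Apc (SE 0.25, adjusted p = 0.0676). Apc was not called without covariates (log2FC -0.34, adjusted p = 0.184), with 1 covariate or with only the naive groups in the fit. Dvl1 was at 5.02, 4.90, 4.72, 5.26 and 4.57 in GFP-naive libraries and between 4.27 and 4.70, with a median of 4.58, in α9k1-naive libraries. Dvl3 was at 4.64, 4.90, 4.84, 4.89 and 4.29 against a range of 3.93 to 4.40 with a median of 4.32. For both genes GFP-naive replicate 5 lay within the α9k1-naive range. Without GFP-naive replicate 4, none of Dvl1, Dvl2, Dvl3, Apc and Hey2 was called, and 1 gene, Hes5, remained. Without α9k1-naive replicate 6, Hes5 and Dvl3 remained, Dvl3 at a log2FC of -0.80. Over all 19 fits that leave out 1 library the call held in 16 for Dvl1, 12 for Dvl2, 18 for Dvl3 and 13 for Apc, with log2FC values of -0.45 to -0.42, -0.67 to -0.43, -0.49 and -0.71 to -0.57 where it was lost. The calls of Dvl1 and Dvl2 were lost also without GFP-naive replicate 1, that of Dvl2 without GFP-naive replicate 2 or 5 or α9k1-crush replicate 3 or 4, and that of Apc without α9k1-naive replicate 5, GFP-crush replicate 2 or 3, or α9k1-crush replicate 3. Of the exon bases of Dvl2, 18.3% are shared with Acadvl on the opposite strand, so their reads cannot be told apart. In the crush comparisons the log2FC of Dvl1, Dvl2 and Dvl3 lay between -1.03 and 0.44, and none was called. Without covariates Dvl1 was called lower after crush with GFP (-0.38, adjusted p = 0.069) and Dvl2 with α9k1 (-0.57, adjusted p = 0.0191).

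Both TCF factors measured were lower after crush with GFP. Tcf7l2, a main effector of beta-catenin, was at 3.75, 3.52, 3.70, 3.70 and 3.15 in GFP-naive and at 2.80, 2.50, 3.05 and 2.87 in GFP-crush libraries, with no overlap (log2FC -0.72, SE 0.20, adjusted p = 0.0258). Tcf7l1, which mostly represses Wnt targets, was at 3.44, 3.86, 3.69, 3.88 and 3.49 and then at 2.94, 2.85, 3.49 and 2.16, with 1 crush library level with the lower naive ones (log2FC -0.98, SE 0.27, adjusted p = 0.0284, but -0.89 and adjusted p = 0.112 without GFP-naive replicate 2, and -0.62 and adjusted p = 0.0786 without GFP-crush replicate 4). With α9k1, levels of both genes did not overlap between crush and naive libraries, but the log2FC of -0.56 (SE 0.35, adjusted p = 0.38) for Tcf7l2 and of -0.74 (SE 0.49, adjusted p = 0.414) for Tcf7l1 were not called. Without covariates both were called lower there (-0.91, adjusted p = 8.44e-05 for Tcf7l2, and -1.59, adjusted p = 2.09e-05 for Tcf7l1).

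**Figure D4:**
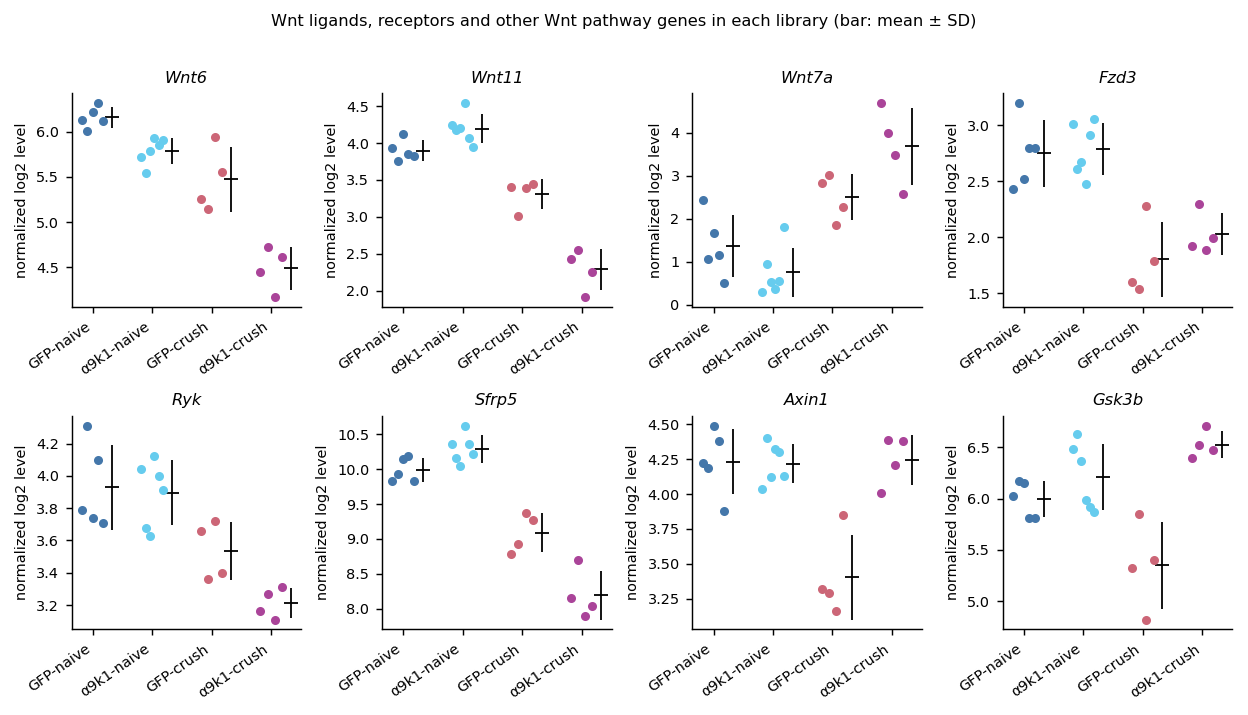
Normalized log2 level (y axis) of 8 Wnt pathway genes in each library (points) of the 4 groups (x axis), with the mean and SD beside each group; the y axes do not start at 0. Sfrp5 lies between 9.83 and 10.62 in the naive groups and between 7.90 and 9.37 in the crush groups, and Axin1 is lower in GFP-crush (3.16 to 3.85) than in every other group (3.88 to 4.49).

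The study's main text names 7 of the 38 genes (Jag1, Notch1, Notch4, Ryk, Fzd3, Wnt11 and Wnt6), and as it chose them on these samples they are not independent evidence of a direction. It placed these 7 in a module of co-expressed mRNAs that were downregulated in both crush groups. The study's supplementary gene lists also hold Gsk3b, in a module upregulated in α9k1-crush, and Notch1, in a cluster upregulated by α9k1 without crush. Of the 7, Wnt6, Wnt11, Fzd3, Ryk and Jag1 were lower in the GFP crush comparison, and Wnt6 and Wnt11 in the α9k1 crush comparison. Without covariates all 7 were called lower in the α9k1 crush comparison and 6, all but Notch1, in the GFP one. Over all 38 genes, 21 were called in at least 1 of the 4 comparisons between groups (44.4% of all genes) and 6 in at least 2 (14.8%), namely Hes5, Hey2, Heyl, Sfrp5, Wnt11 and Wnt6, and every one of these calls was a decrease in the group with crush or with α9k1.

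The effect of the covariates was largest where α9k1-crush was compared. In α9k1-crush versus GFP-crush, Hes1 had nearly equal means (4.40 and 4.41) and a log2FC of 1.34 at equal covariates (SE 0.56, adjusted p = 0.494), whereas Sfrp1 had means of 3.32 and 4.26 and a log2FC of 0.45 (SE 0.31, adjusted p = 0.715). In GFP-crush versus GFP-naive all 17 lower calls were also made without covariates, where 21 genes were lower and 2 higher (20.1% and 11.0% of all genes). Without covariates 7 of the 38 genes had a positive interaction (Jag2, Apc, Axin1, Dvl1, Gsk3b, Wnt7a and Dkk3) and 8 a negative one (Hes6, Hey2, Heyl, Notch1, Tcf7l1, Wnt11, Wnt6 and Sfrp5), against 23.3% and 16.1% of all genes. The plot of both fits shows this contrast.

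**Figure D5:**
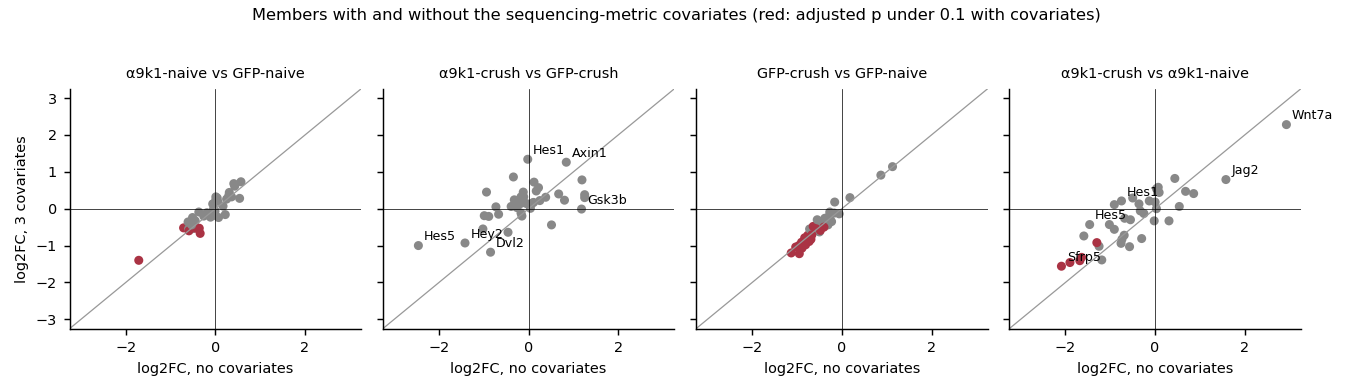
log2FC of the 38 genes without covariates (x axis) and with 3 covariates (y axis) in each comparison, where a point is a gene, red marks a call with covariates and the diagonal is equality. Points lie near the diagonal in the 2 comparisons with GFP-naive and scatter about it in the 2 with α9k1-crush, where Hes5 moves from -2.46 to -1.0 against GFP-crush.

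Other genes of the 2 pathways were taken from fixed lists that hold none of the 38. In the GFP crush comparison 15.7% of all genes were lower and 7.39% higher, and the counts of each list are read against these shares. Of 10 measured genes for Wnt receptor turnover and inhibition, 5 were lower and 0 higher, with a median log2FC of -0.76. The stem cell marker and R-spondin receptor Lgr5 was among them (log2FC -1.14, SE 0.17, adjusted p = 0.000842), as were its relative Lgr4 (-0.90, SE 0.18, adjusted p = 0.00445) and the ubiquitin ligase Znrf3 (-0.79, SE 0.27, adjusted p = 0.0627). Of 22 genes for the destruction complex and beta-catenin, 4 were lower and 1 was higher, and of 9 planar cell polarity genes 2 were lower, Celsr2 (log2FC -1.60, SE 0.30, adjusted p = 0.00345) and Daam2 (-0.72, SE 0.17, adjusted p = 0.0117). On the Notch side 5 of 13 genes for receptor processing were lower, with the protease genes Adam10 (-0.85, SE 0.27, adjusted p = 0.0474) and Adam17 (-0.67, SE 0.18, adjusted p = 0.0209) and the secretase subunit gene Aph1a (-1.03, SE 0.30, adjusted p = 0.0338) changed most. Of 11 genes for trafficking and turnover 4 were lower, and of 8 in the transcription complex 2 were lower, the corepressor genes Spen (-0.67, SE 0.15, adjusted p = 0.00967) and Ncor1 (-0.63, SE 0.14, adjusted p = 0.0103). In none of the last 4 lists was a gene higher. In the α9k1 crush comparison 1 gene of the turnover list (Lgr5, log2FC -1.53, SE 0.31, adjusted p = 0.0104), 1 of the polarity list (Daam2, -1.23, SE 0.30, adjusted p = 0.0278) and 1 of the trafficking list (Nrarp) were lower, and 0 genes of the other 3 lists were called.

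Nrarp, a Notch-induced feedback inhibitor, was higher with α9k1 in naive ganglia and lower after crush. It was at 6.46, 6.50, 6.77, 6.75 and 6.52 in GFP-naive libraries and from 7.80 to 8.67 in α9k1-naive libraries, a log2FC of 1.81 (SE 0.17, adjusted p = 2.4e-06). Hes5 and Hey2 were lower in the same comparison. Nrarp was at 5.47, 4.98, 6.02 and 5.79 in GFP-crush and at 5.89, 6.37, 5.69 and 5.89 in α9k1-crush libraries. It was lower after crush with either virus (log2FC -1.08, SE 0.17, adjusted p = 0.00119 with GFP, and -1.20, SE 0.31, adjusted p = 0.0329 with α9k1). It was also the one gene of these 6 lists called in α9k1-crush versus GFP-crush, where it was higher at equal covariates (log2FC 1.69, SE 0.37, adjusted p = 0.0524) although the levels overlapped and the means of 5.96 and 5.56 were much closer than that.

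Markers of other cells moved with the same comparisons. In GFP-crush versus GFP-naive, 5 of 12 glial markers were lower, led by Fabp7 (log2FC -1.05) and Apoe (-0.93), and 1, Mbp, was higher. In the same comparison 7 of 9 mural cell and fibroblast markers were lower, 9 of 11 macrophage markers and 7 of 13 neuronal markers were higher with 1, Scn9a, lower, and 0 of 5 endothelial markers were called. In α9k1-crush versus α9k1-naive 4 glial markers were lower and 3 higher, and 5 mural, 2 endothelial, 2 macrophage and 4 neuronal markers were higher, the last led by the neurofilament genes Nefh (log2FC 2.79), Nefl (2.73) and Nefm (2.71). In α9k1-naive versus GFP-naive, where Hes5 and Hey2 were lower, 5 of 5 endothelial and 8 of 9 mural markers were lower, 5 glial markers were lower and 3 higher, and 9 macrophage markers were higher. In that comparison 4 neuronal markers were lower, among them Nefm (log2FC -2.42), Nefh (-2.32) and Nefl (-2.10), and 1, Prph, was higher. In α9k1-crush versus GFP-crush 0 markers of any list were called, where 0.728% of all genes were called higher and 0.182% lower. Group means there still differed in both directions. In α9k1-crush they were lower for Fabp7 (7.01 against 8.64) and Sox10 (6.35 against 7.76). They were higher for Snap25 (10.88 against 10.17) and Csf1r (4.14 against 3.11). As background, Hey1, Hey2, Heyl, Jag1 and Notch4 are known in vascular cells and Hes1 and Hes5 in glia. The part of these cells in the levels of the 38 genes was not tested.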

How the data were processed

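The 38 genes were matched by symbol in the authors' deposited gene table. The authors aligned SMART-Seq v4 reads with STAR to mm10/GRCm38, counted them with Salmon, removed genes with few reads, converted to log2 after a small offset, and used cqn to correct for length and depth. These log2 values were deposited without gene names, so the rows were taken in the order of the gene table. With that order the introduced genes ranked high among the 12629 differences (Fermt1 at 3 and 1, Itga9 at 181 and 2, for α9k1 minus GFP without and with crush). The deposited library metrics, which the authors made with Picard, hold counts of reads and bases, fractions of them, percent dropouts and coverage ratios. The gene table also holds the authors' log2 fold changes, p-values and adjusted p-values, which were not used.

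One limma fit (limma 3.58.1, R 4.3.3) took all 19 libraries, the 4 groups and the first 3 principal components of 48 scaled metrics (45.9%, 24.1% and 11.5% of their variance), leaving 12 residual degrees of freedom. The study's model also has batch, which the sample table does not give. Calls are at an adjusted p under 0.1 over all genes. Samples were grouped by their labels. Levels are given per library or as mean ± SD. For each comparison the genes named are up to 5 largest increases and 5 largest decreases among called members, plus the 7 in the study's main text, and other members are given for their role. List genes are up to 3 a list with the largest log2FC among those called. Outside these rules a log2FC is also given for Hes1, Hes6, Fzd8, Sfrp1, Tcf7l1, Tcf7l2 and Gsk3b. Jag2, Wnt7a and Dkk3 were chosen after their values were seen, as were Wls, Lfng, Fzd1 and Lrp6. The members and lists were chosen with earlier results of these data known. Alternatives were no covariates, 1 covariate, only the groups compared, the 25% of genes with the lowest values removed, a further pseudocount of 1, median-centring, quantile normalization, a replicate block and leaving out each library. The fit was tested on simulated data. Exon overlaps are from GENCODE vM21, promoters from RefSeq. Tables and figures were made with Python 3.11.15, pandas 2.3.3, numpy 2.4.6 and matplotlib 3.10.9.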

Additional observations from a re-analysis of the deposited data

Results flagged for a closer look

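Of 152 groups of libraries (38 genes in 4 groups), 11 had 1 library that stood apart from the rest by Dixon's criterion, which chance alone flags in about 1 in 20 groups. With GFP and no crush, Hes1 was highest at 5.38 and Hes6 at 6.14 in the same library, GFP-naive replicate 4, and Sfrp4 was lowest at 1.22 in replicate 3. In α9k1-naive, Tcf7l1 was highest at 4.91 in replicate 4 and Dvl3 lowest at 3.93 in replicate 5. In GFP-crush, Hes5 was lowest at 3.31 and Wnt11 lowest at 3.01, both in replicate 2, and Heyl was highest at 4.20 in replicate 3. In α9k1-crush, Apc was lowest at 4.30 in replicate 4, Dvl2 at 2.0 in replicate 1 and Fzd8 at 3.69 in replicate 3. Without GFP-crush replicate 2, Hes5, Ryk and Wnt11 were no longer called in GFP-crush versus GFP-naive and 14 genes were.

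The α9k1 effect on Axin1 differed with crush, by an interaction of 1.33 in limma (SE 0.34, adjusted p = 0.0832), a call that was lost in 10 of the 19 fits that leave out 1 library, after median-centring, after quantile normalization and with the replicate block.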

How the results depend on the processing

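No gene called in the main fit (3 covariates, all 19 libraries) changed sign in that comparison under any alternative that kept it. Some calls made without covariates did have the other sign in the main fit. In α9k1-crush versus α9k1-naive, Hes1 was at -0.75 without covariates and 0.21 with them, and Sfrp1 at -0.91 and 0.11. In α9k1-naive versus GFP-naive (0 higher, 6 lower), higher counts were 4 without covariates, 1 with only the groups compared, 2 with low values removed, 1 with a pseudocount of 1, 4 median-centred, 3 after quantile normalization, 2 with the replicate block and 4 with 1 covariate, and lower counts 11 without covariates, 3 with only the groups compared, 1 with the block and 11 with 1 covariate. In α9k1-crush versus GFP-crush (0 and 0) there were 8 higher and 11 lower without covariates and 5 and 9 with 1 covariate. In GFP-crush versus GFP-naive (0 and 17), higher counts were 2 without covariates, 1 median-centred, 1 after quantile normalization, 1 with the block and 2 with 1 covariate, and 10 were lower with only the groups compared. In α9k1-crush versus α9k1-naive (0 and 5) there were 5 higher and 20 lower without covariates, 1 higher with the block, 4 higher and 21 lower with 1 covariate, and 1 lower with only the groups compared. Positive interactions (1) numbered 7 without covariates, 5 with 1 covariate, and 0 median-centred, after quantile normalization and with the block, and negative ones (0) 8 without covariates and 6 with 1 covariate. The fits with only the groups compared have fewer samples. For the other settings the cause was not tested.

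Leaving out 1 library at a time gave 0 to 2 higher and 1 to 7 lower in α9k1-naive versus GFP-naive, 0 to 1 and 0 to 0 in α9k1-crush versus GFP-crush, 0 to 1 and 12 to 18 in GFP-crush versus GFP-naive, and 0 to 1 and 3 to 8 in α9k1-crush versus α9k1-naive, with 0 to 1 positive and 0 to 0 negative interactions. The 12 came without GFP-naive replicate 2, the 8 without α9k1-crush replicate 2, and the 3 without GFP-naive replicate 3 or α9k1-naive replicate 1.

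Correlations gave no sign that replicate numbers pair the libraries, which does not exclude a shared animal or batch. Over 25 pairs with the same number, deviations from the group means correlated at -0.269 to 0.149, 4 above 0.1, and 3 of 19 libraries correlated best with their own number. Pairs with different numbers correlated at -0.223 to 0.265.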
